A study of Mus musculus with 2 samples.

Results

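The antisense transcripts described here are 99 genes with a placeholder symbol (Gm followed by a number, or a clone name ending in Rik) and transcripts that the annotation types as antisense. Of these, 93 overlap the body of a gene on the opposite strand. They were chosen from 2619 genes with such a symbol, at least 1 transcript of the type antisense and none of the type lincRNA, out of 55450 annotated genes. A gene was taken where its level reached 5 TPM in both libraries, and Gm37376 was left out. TPM is a relative abundance, the share of all transcripts of a library that a gene holds after correction for length. Of the 99 symbols, 74 are Gm numbers and 25 end in Rik.

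Both libraries were made from macrophages that had been grown from bone marrow of the mouse strain C57BL/6J and treated for 90 min with lipid A at 100 ng/ml. Lipid A is the anchor of bacterial lipopolysaccharide and a ligand of the receptor TLR4. RNA of the nucleoplasm, the soluble part of the nucleus, was depleted of ribosomal RNA and sequenced as total RNA, from 1 µg in replicate 1 and 500 ng in replicate 2. The labels tie both replicates to 1 donor entry, so their spread may be partly technical, and sex and age were not collected. The series has 1 group, so no condition was compared and no test or p-value is given.

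Antisense transcripts overlap a gene on the other strand, share complementary bases with its RNA where exons overlap, or run through its introns. Some are known to act on the gene opposite, through transcription across its promoter or through pairing with its RNA, while most have no assigned role. Many long noncoding RNAs are found mainly in the nucleus.

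The first library had a total of 22669533 estimated counts and the second 14939143. Features with an effective length (the transcript length open to fragment starts) under 200 bases held 73.9% of all TPM in replicate 1 and 57.0% in replicate 2, which lowers the TPM of longer genes more in replicate 1. All 8 macrophage markers reached 1 TPM in each library and summed to 2053 TPM in replicate 1 and 2754 in replicate 2. No marker of T and NK cells or B cells reached 1 TPM in both libraries, and 1 of 5 neutrophil markers and 1 of 5 stromal and endothelial markers did. Cd3d, Cd3e, Cd3g, Ncr1, Nkg7, Elane and Ly6g were listed at 0.

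To show what sharing bases with the opposite gene means, a stretch of 4 antisense RNAs is given 5′ to 3′, as read from GENCODE M21 transcripts on mm10. Capitals mark bases complementary to a stretch annotated as coding in the opposite gene, and lower case marks 20 flanking bases on each side that are not exonic there. The 4 were chosen after their values were seen, in order of mean TPM among those whose leading transcript holds a coding stretch of suitable length. The stretches lie at chr12:111451043-111451069 (Gm40578, opposite Tnfaip2), chr17:55956185-55956339 (Gm16712, opposite Ebi3), chrX:169984999-169985142 (Gm15726, opposite Mid1) and chr8:72138588-72138721 (Gm26586, opposite Tpm4), each on the minus strand.
Gm40578: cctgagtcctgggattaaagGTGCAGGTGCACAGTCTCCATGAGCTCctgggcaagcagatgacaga
Gm16712: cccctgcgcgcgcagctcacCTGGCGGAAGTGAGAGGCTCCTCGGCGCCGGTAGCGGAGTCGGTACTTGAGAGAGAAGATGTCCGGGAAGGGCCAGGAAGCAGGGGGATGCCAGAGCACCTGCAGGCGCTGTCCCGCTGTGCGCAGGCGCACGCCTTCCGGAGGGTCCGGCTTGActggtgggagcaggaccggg
Gm15726: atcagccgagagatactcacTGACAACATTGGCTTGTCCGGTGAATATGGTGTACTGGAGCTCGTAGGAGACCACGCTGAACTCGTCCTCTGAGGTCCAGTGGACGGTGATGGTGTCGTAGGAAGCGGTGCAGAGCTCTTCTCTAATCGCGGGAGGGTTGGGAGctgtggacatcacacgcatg
Gm26586: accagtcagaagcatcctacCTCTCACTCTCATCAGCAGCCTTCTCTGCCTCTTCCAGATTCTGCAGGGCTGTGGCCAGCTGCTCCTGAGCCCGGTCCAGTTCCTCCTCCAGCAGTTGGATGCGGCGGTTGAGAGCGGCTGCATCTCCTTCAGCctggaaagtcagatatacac
The printed run was 27 bases in Gm40578, 155 in Gm16712, 144 in Gm15726 and 134 in Gm26586. It is not all of the overlap in every case. The Gm40578 transcript shares 314 exonic bases with Tnfaip2, 175 of them coding, and Gm16712 shares 270 exonic bases with Ebi3. Gm16712, Gm15726 and Gm26586 have 1 annotated transcript each, so its share of the gene's expression is 100% in any case. Gm40578 has 2, and the printed one held 100% in both libraries, by the authors' deposited percent per isoform. Where the strand of the reads is not used, reads from such a run fit both genes alike.

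The sources used here do not say whether the authors' counting used the strand of the reads. Without strand, reads from an antisense transcript and from its partner, unspliced partner RNA included, cannot be told apart, and how far partner reads contribute to the levels below was not tested.

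Most annotated antisense genes with a placeholder symbol were low or listed at 0 in these libraries. Of the 2619, 1341 (51.2%) were listed at 0 TPM in both libraries and another 788 stayed under 1 TPM in both. A level of 1 TPM or more in both libraries was reached by 338, and the 99 at 5 TPM were 3.78%. Above that the set thinned quickly, with 42 at a minimum of 10 TPM in each library, 19 at 20 and 5 at 50. In 57 of the 99 the lower library lay between 5 and 10 TPM.

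The threshold cut through a continuous range. Just inside it, Gm15859 had 5.01 TPM in replicate 1 and 5.0 in replicate 2, Gm43569 had 5.0 and 6.53, and Gm45188 had 5.03 and 10.76. Just outside it, 0610038B21Rik had 4.99 and 8.11 TPM, 1700008B11Rik had 4.96 and 6.04, and Gm16794 had 7.72 and 4.91. With the genes just outside included, 10 genes reached 5 TPM in replicate 1 alone and 47 in replicate 2 alone.

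The median level of the 99 antisense genes was 9.87 TPM in replicate 1 and 15.08 in replicate 2, a mean of 12.5 ± 3.68 (SD, n = 2). They took 68831 of the estimated counts of replicate 1 and 44002 of replicate 2, which is 0.304% (95% Wilson interval 0.301% to 0.306%) and 0.295% (0.292% to 0.297%) of each library. Over the 4929 protein-coding genes at 5 TPM, which passed the same threshold, the median was 14.5 TPM in replicate 1 and 18.4 in replicate 2. For 61 lincRNA genes with placeholder symbols it was 14.6 and 17.4, and for 11 other antisense genes 12.3 and 15.9. The antisense genes were short, with a median effective length of 841 bases in replicate 1 and 853 in replicate 2, against 2216 and 2293 for the protein-coding genes. They were also simple, with 7 of 1 exon, 53 of 2 exons and 39 of 3 or more. All but 28 had a single annotated transcript, and in 26 of those 28 the same transcript led in both libraries. They were spread over 20 chromosomes, with the most, 11, on chromosome 1.

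**Figure D1:**
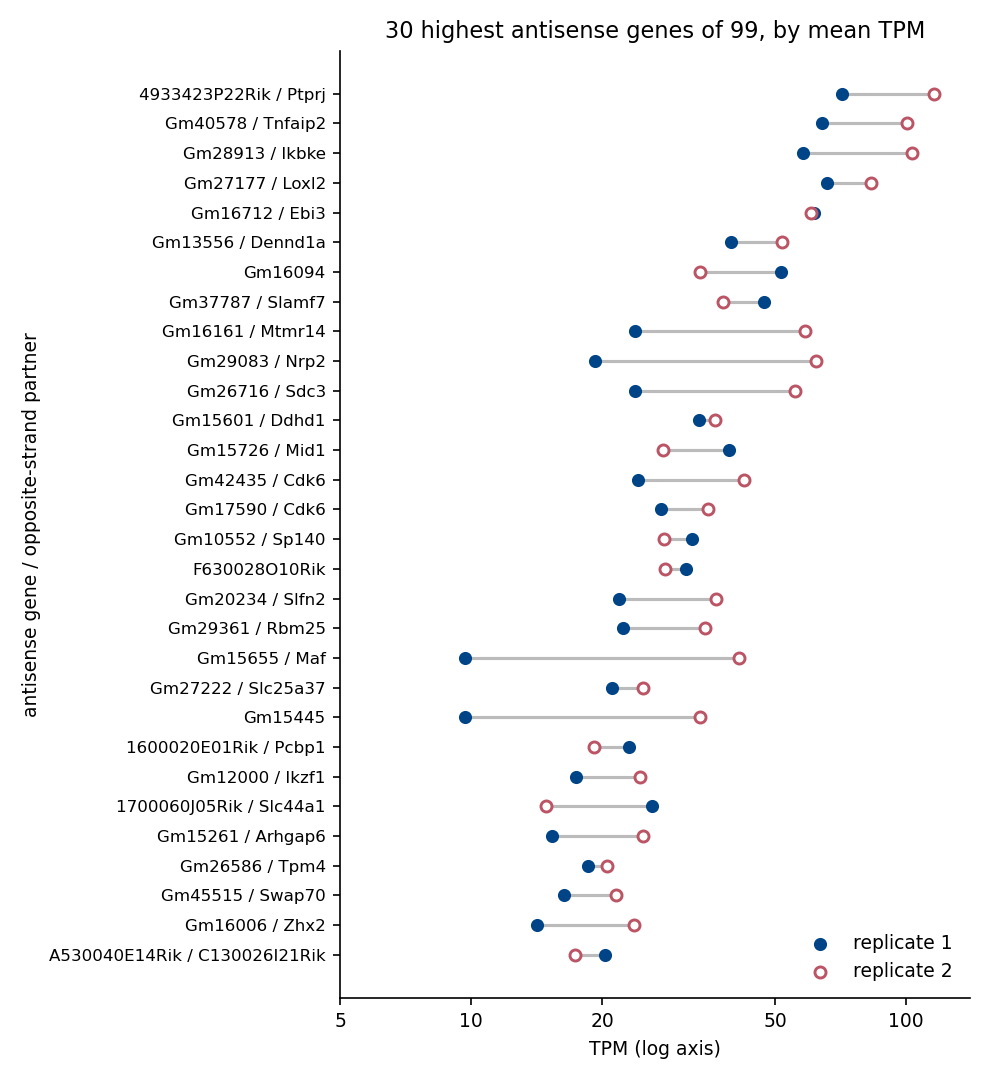
TPM (log axis) of the 30 antisense genes with the highest mean, each named with its opposite-strand partner where it has one, with replicate 1 as filled and replicate 2 as open points. The levels fall from 71.2 and 115.79 TPM for 4933423P22Rik, and the points of Gm15655 (9.66 and 41.23 TPM) lie farther apart than those of Gm16712 (61.36 and 60.54 TPM).

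The 10 highest are described with the genes opposite them. 4933423P22Rik (chr2:90479236-90488425, plus strand) had 71.20 TPM in replicate 1 and 115.79 in replicate 2. It lies inside Ptprj, a receptor-type tyrosine phosphatase, without sharing exons with it. Gm40578 (chr12:111450405-111500840, minus strand) had 64.18 and 100.60 TPM and meets Tnfaip2, a gene induced by tumour necrosis factor, tail to tail, with 314 shared exonic bases. Gm28913 (chr1:131263330-131266749, plus strand) had 57.86 and 103.18 TPM inside Ikbke, which encodes a kinase of interferon induction. Gm28913 had an effective length under 200 bases, and its level rested on 292 counts in replicate 1 and 274 in replicate 2.

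Gm27177 (chr14:69582164-69683286, minus strand) had 65.66 TPM in replicate 1 and 83.16 in replicate 2, on 5494 and 3541 counts. It runs out of the body of Loxl2, which encodes an enzyme that crosslinks collagen. Gm16712 (chr17:55954771-55959381, minus strand) had 61.36 and 60.54 TPM, close to equal in the libraries, and overlaps the end of Ebi3, a subunit of the cytokines IL-27 and IL-35. Its annotated start lies 282 bases into Yju2, a splicing factor gene, counted from the start of Yju2.

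Among the other 5 of the 10 highest, Gm13556 had 39.62 TPM in replicate 1 and 51.88 in replicate 2, inside Dennd1a, an activator of Rab GTPases. Gm16094 had 51.59 and 33.58 TPM, and Gm37787 had 47.02 and 37.90 inside Slamf7, a surface receptor of immune cells. These 2 were higher in replicate 1. Gm16161 had 23.83 and 58.61 TPM inside Mtmr14, a phosphoinositide phosphatase, on only 66 and 86 counts. Gm29083 had 19.24 and 61.91 TPM inside Nrp2, a coreceptor for semaphorins and growth factors. Gm37787 shares 423 of its 585 exonic bases with exons of Slamf7, which had 237.24 TPM in replicate 1 and 238.23 in replicate 2. Gm13556 shares 80 of its 1412 with Dennd1a, and Gm16161 and Gm29083 share none with their partners. In a second quantification of the same reads, described further on, Gm28913 was 3.42-fold, Gm16094 3.12-fold, Gm16161 3.07-fold and Gm37787 1.61-fold higher relative to protein-coding genes.

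By position, 70 of the 99 lay wholly inside the body of a protein-coding gene on the opposite strand, called the partner below. Of these, 41 shared no exonic base with it and 29 did. Another 16 met the partner tail to tail, with overlapping ends, 6 met it head to head, with the start inside the partner and the end outside, and 1 enclosed it (Gm10634, around Bcl2a1d). Gm16094 overlapped none but started 469 bases from the start of Sp110 in the divergent direction, and 5 had neither. Among all 2619 candidates, 4.97% of the 1409 inside a partner, 4.13% of the 387 tail to tail and 1.11% of the 542 head to head were at 5 TPM.

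Exons overlapped the partner's exons in 47 of the 93 genes with a partner, by 100 bases or more in 39. In 5 genes at least 90% of the exonic bases lay on partner exons: Gm26716 (all of its 415 bases, opposite Sdc3), Gm15655 (all of 440, opposite Maf), Gm44709 (96.7%, opposite Supt5), A630072M18Rik (5142 of 5410 bases, opposite Rsbn1l) and Gm37401 (93.4%, opposite Rhoa). The annotation gives reads from these 5 almost no bases outside the partner's exons.

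The 93 genes had 84 distinct partners, of which 76 had 1 antisense gene, 7 had 2 and 1 had 3. Inside Arhgap10, 4933421D24Rik had 13.27 TPM in replicate 1 and 15.26 in replicate 2, Gm45285 had 12.11 and 17.79, and Gm45406 had 8.13 and 16.42. The pairs lay at Ano6, Cdk6, Ikbke, Lrmda, Mid1, Sp140 and Zhx2. Levels within a pair could be close or far apart. Inside Cdk6, a cell cycle kinase, Gm42435 had 24.15 and 42.45 TPM and Gm17590 had 27.34 and 34.96. Inside Ikbke, Gm28914 had 11.89 and 20.24 TPM, below Gm28913 in both libraries. Gm10552, Gm17017 and Gm16094 all lie in the Sp100, Sp110 and Sp140 cluster on chromosome 1, a family of related nuclear body genes, and how reads shared between its copies were assigned was not tested.

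Partners were mostly expressed genes. Of the 99 antisense genes, 87 lay opposite a partner that reached 5 TPM in each library and 43 opposite one that reached 50 TPM. The partners' median over the 93 genes was 43.2 TPM in replicate 1 and 52.9 in replicate 2. The antisense gene was the lower of the pair in most cases, with a median log2 ratio of antisense gene to partner of -2.01 in replicate 1 and -1.90 in replicate 2, which is 4.04-fold and 3.73-fold lower. The median was -2.03 and -1.86 over 70 genes inside a partner and -1.97 and -2.12 over 16 tail-to-tail genes. The 6 head-to-head genes lay on both sides of their partners, with a median of -0.40 and -0.81 and ratios that ran from -3.47 (Gm11696) to 6.51 (Gm27177) in replicate 1.

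**Figure D2:**
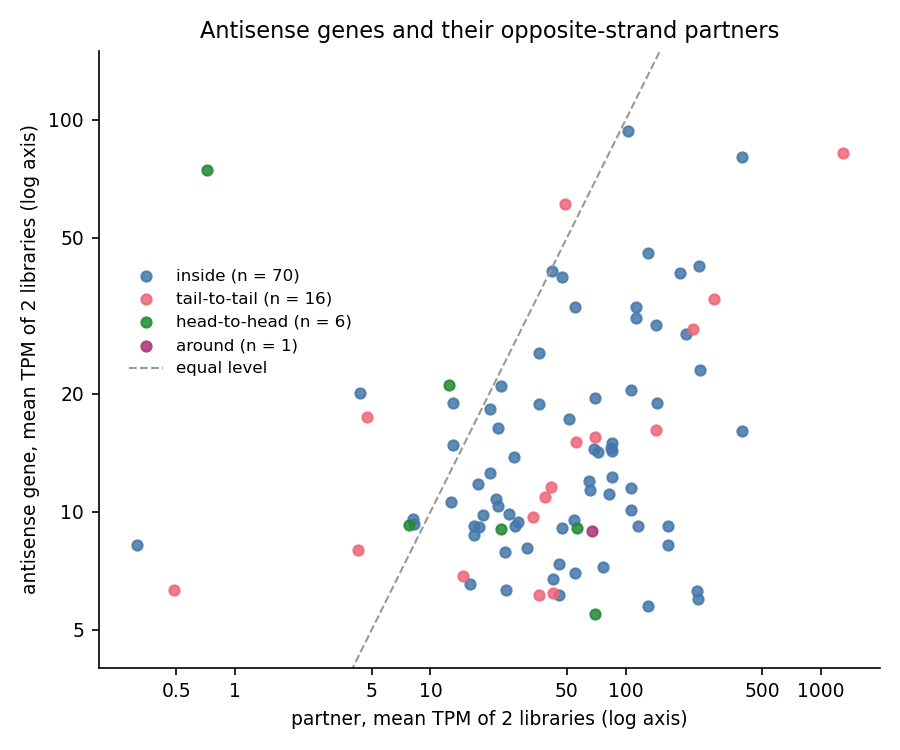
Mean TPM over both libraries of each antisense gene (vertical, log axis) against its opposite-strand partner (horizontal, log axis) for 93 pairs, coloured by position. Most points lie right of the dashed line of equal level, and Gm27177, at a mean of 74.4 TPM opposite Loxl2 at 0.72, lies far left of it.

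In 11 of 93 pairs the antisense gene was above its partner in both libraries. In the first quantification the widest gap was Gm27177, with 65.66 TPM in replicate 1 and 83.16 in replicate 2, against 0.62 and 0.82 TPM for Loxl2. That is a log2 ratio of 6.51 and 6.50. Gm30329 had 5.28 and 11.20 TPM against 0.08 and 0.55 for 1700011L22Rik, and 1810032O08Rik had 6.46 and 6.18 TPM against 0.42 and 0.55 for St6galnac2, a sialyltransferase. The partner was under 1 TPM in both libraries at these 3 loci in the first quantification. Gm15261 had 15.32 and 24.79 TPM against 3.77 and 4.97 for Arhgap6. Gm17435 had 19.07 and 15.77 TPM against 4.93 and 4.51 for Med26, a subunit of Mediator. The gaps narrowed in the second quantification. There Gm27177 stood at 679% of Loxl2, Gm30329 at 717% of 1700011L22Rik and 1810032O08Rik at 449% of St6galnac2. In the first they stood at 10335%, 2616% and 1303% of the partner's mean level. Gm15261 stood at 459% of Arhgap6 in the first and 244% in the second, and Gm17435 at 369% and 332% of Med26.

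At the other end, Gm44649 had 5.27 TPM in replicate 1 and 6.74 in replicate 2 inside Iqgap1, a scaffold protein gene at 205.62 and 262.47 TPM. Gm15701 had 7.13 and 5.45 TPM inside Rasa4, a Ras GTPase-activating protein gene at 239.34 and 223.22. Both genes share exons with their partner and stood at 2.57% (Gm44649) and 2.72% (Gm15701) of its mean level. Gm28914 stood at 4.10% of Ikbke, Gm43569 at 4.45% of Fnbp1l and Gm10791 at 5.0% of App, the amyloid precursor protein gene. These shares moved with the quantification. In the second one Gm44649 stood at 32.7% of Iqgap1, Gm15701 at 5.65% of Rasa4, Gm28914 at 3.42% of Ikbke, Gm43569 at 23.8% of Fnbp1l and Gm10791 at 10.7% of App.

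The share of candidates that reached 5 TPM was higher the higher the partner's level. Of candidates inside a partner without exonic overlap, 1 of 437 (0.229%) reached it where the partner's mean was under 1 TPM, 3 of 169 (1.78%) at 1 to 10 TPM, 20 of 89 (22.5%) at 10 to 50 TPM and 17 of 45 (37.8%) at 50 TPM or more. With exonic overlap none of 328 and none of 180 did in the first 2 classes (exact 95% upper bounds 1.12% and 2.03%), 8.62% of 116 did in the third and 42.2% of 45 in the highest. Across the 740 candidates without exonic overlap, the log2 mean TPM of candidate and partner correlated with a Pearson r of 0.735 and a Spearman rho of 0.728. The median level of these 740 was 0 TPM in each library, and 437 of them had a partner under 1 TPM. These points share libraries, depth and locus, and genes are not independent replicates.

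Sense-intronic genes, which lie in introns of a host on the same strand, followed the same order of classes. None of 115 reached 5 TPM where the host was under 1 TPM, 1.83% of 109 did at 1 to 10 TPM, 17.3% of 75 at 10 to 50 TPM and 31.3% of 16 at 50 TPM or more. The intervals of the antisense genes without exonic overlap and the sense-intronic genes overlapped in every class. They take genes as independent trials and are wide, 11.0% to 58.7% for the 16 sense-intronic genes, so overlap does not show that the sets are alike. The part of unspliced host RNA in either set was not tested. Within the 99, chosen to be at 5 TPM, the correlation of antisense gene and partner was weaker, with r of 0.288 and rho of 0.290 over 93 pairs.

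**Figure D3:**
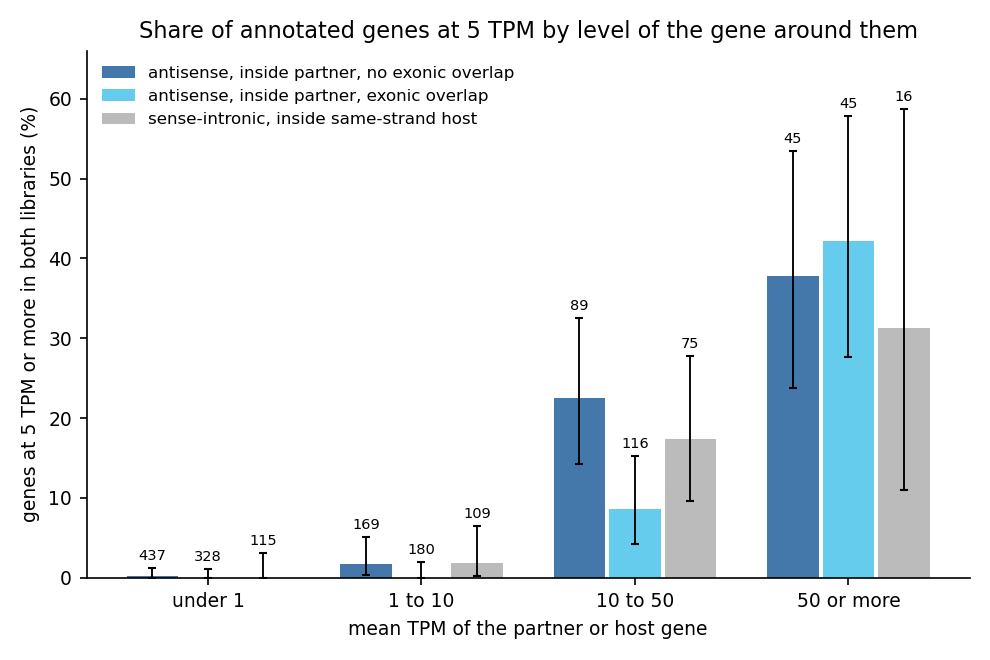
Share of annotated genes that reached 5 TPM in each library (vertical, percent) by the mean TPM of the surrounding gene, for antisense genes inside a partner without and with exonic overlap and for sense-intronic genes inside a same-strand host. Bars are shares, lines are exact 95% binomial intervals that take genes as independent trials, and numbers are the genes in each class. The bars climb from 0.229%, 0% and 0% in the lowest class to 37.8%, 42.2% and 31.3% in the highest.

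Partners of 3 antisense genes were on the lists of lipid A response and macrophage genes. Of 183 listed genes, 153 were at 5 TPM in both libraries, and 3 of these (1.96%) were the partner of one of the 99, close to the 78 of all 4929 protein-coding genes at 5 TPM (1.58%). The lists of inflammatory cytokines and chemokines, interferon response and immediate-early transcription factors had none among 24, 35 and 16 genes at 5 TPM. The 3 were Gm40578 opposite Tnfaip2, Gm36328 opposite Dusp16, a phosphatase of MAP kinases, and Gm15655 opposite Maf, a transcription factor of macrophages. Gm40578 stood at 6.39% of the mean level of Tnfaip2, which had 994.76 TPM in replicate 1 and 1585.47 in replicate 2. Gm36328 had 5.74 and 13.13 TPM on 42 and 50 counts, inside Dusp16 at 22.03 and 33.98 TPM, and shared no exon with it.

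Starts were close to that of another gene on the opposite strand in 11 of the 99, within 1000 bases. The closest was 1600020E01Rik, whose start lies 74 bases into Pcbp1, an RNA-binding protein gene, counted from the start of Pcbp1. 1600020E01Rik had 23.01 TPM in replicate 1 and 19.16 in replicate 2, above Pcbp1 at 13.81 and 10.99. E130307A14Rik starts 111 bases from Rev3l, a DNA polymerase gene, and had 6.87 and 9.08 TPM against 2.45 and 5.33 for Rev3l. 3110056K07Rik starts 158 bases from Arid4a, a chromatin protein gene, with 11.81 and 11.32 TPM against 9.04 and 14.80. Gm41077 starts 211 bases from Nim1k, a kinase gene, with 6.57 and 5.68 TPM against 0.23 and 0.38. Gm16712 stood at 61.36 and 60.54 TPM against 8.17 in both libraries for Yju2. Gm16094, with 51.59 and 33.58 TPM, was below Sp110 at 118.74 and 97.42. Of all 11, 5 were above the start neighbour in both libraries, 5 were below it in both, and 3110056K07Rik was above in 1 library. The 5 below were Gm16094, Gm17017 (19.38 and 12.87 TPM, against 81.94 and 79.12 for Sp100), Gm37401 (against Gpx1), Gm10634 (against Mthfsl) and Gm11696 (against Gna13).

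2 of the 99 carry annotated small RNA genes on the same strand, within exons merged over all annotated transcripts of the gene. F630028O10Rik (chrX:96239926-96243636, plus strand) holds Mir223, the gene of a microRNA that is abundant in myeloid cells. 1810032O08Rik holds Snord1a, Snord1b and Snord1c, which encode small nucleolar RNAs that guide RNA modification. It has 7 transcripts, of the types antisense and retained intron, and which of them have these genes in an exon was not examined. F630028O10Rik had 31.10 TPM in replicate 1 and 27.82 in replicate 2, on 2976 and 1310 counts, and no opposite-strand partner. The 4 small RNA genes themselves were listed at 0 counts, in libraries with a labelled size range of 250 to 400. The mature microRNAs of Mir223 are printed because their host was among the 20 highest of the 99. Capitals mark the seed, bases 2 to 8, and the sequences are those of RefSeq on GRCm38.p6, at chrX:96242842-96242864 and chrX:96242884-96242905 on the plus strand.
mmu-miR-223-5p: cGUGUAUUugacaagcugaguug
mmu-miR-223-3p: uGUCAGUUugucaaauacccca

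Of the other 4 genes without a partner, Gm15445 had 9.66 TPM in replicate 1 and 33.62 in replicate 2, D730005E14Rik had 10.92 and 6.84, 4930430E12Rik had 7.65 and 6.58, and Gm15859 had 5.01 and 5.0. Gm15445, D730005E14Rik and Gm15859 overlap the bodies of same-strand genes, Arl8a, Apobec3 and Hmox2. D730005E14Rik shares 676 of its 3589 exonic bases with Apobec3, a DNA deaminase gene at 79.30 and 66.97 TPM, so reads of that stretch fit both genes.

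Promoter windows, from 250 bases before to 50 after the RefSeq start, were at hand for 26 of the 99, and in 17 that start lay within 250 bases of the GENCODE start. These 17 windows were searched on both strands for 7 motifs. The NF-kB motif (GGGA and TTCC with any 2 bases between) was in 2 (11.8%, against 1.47% of all 32851 windows), the ISRE, an interferon response element (GAAA and GAAA with any 2 bases between), in 1 (5.88%, against 3.44%) and GAGGAA (PU.1 core) in 7 (41.2%, against 28.3%). TATAAA was in 1 (5.88%, against 13.6%). TGANTCA (AP-1), TTGCNNCAA (C/EBP) and CACGTG (E-box) were in none, against 7.81%, 2.08% and 7.15%. With 17 windows, 1 window moves a share by 5.88 percentage points. The window held a median of 7 CG dinucleotides in these 17 and in all windows.

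The windows of F630028O10Rik, with the ISRE match, and of Gm17227, 1 of the 2 with the NF-kB match, are printed 5′ to 3′ along the gene's strand from RefSeq on GRCm38.p6, with motif matches in capitals. They lie at chrX:96239676-96239975 and chr19:7297435-7297734, both on the plus strand. The pair was chosen after the matches were seen.
F630028O10Rik: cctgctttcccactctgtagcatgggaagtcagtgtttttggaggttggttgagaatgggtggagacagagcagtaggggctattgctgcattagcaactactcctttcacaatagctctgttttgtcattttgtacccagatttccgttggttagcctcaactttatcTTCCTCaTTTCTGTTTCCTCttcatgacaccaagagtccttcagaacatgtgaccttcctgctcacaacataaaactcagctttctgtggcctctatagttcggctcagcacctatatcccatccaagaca
Gm17227: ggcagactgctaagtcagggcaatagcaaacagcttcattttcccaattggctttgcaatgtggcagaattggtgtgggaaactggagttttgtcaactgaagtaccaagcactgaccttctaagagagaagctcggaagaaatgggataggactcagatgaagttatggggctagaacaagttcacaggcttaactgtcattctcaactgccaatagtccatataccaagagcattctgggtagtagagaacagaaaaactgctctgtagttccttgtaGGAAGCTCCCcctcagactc
In F630028O10Rik the ISRE match spans bases 177 to 186 of the window and overlaps the PU.1 core match at bases 184 to 189, while the other PU.1 core match is at bases 170 to 175. In Gm17227 the NF-kB match is at bases 281 to 290, past the RefSeq start. Gm17227 had 7.12 TPM in replicate 1 and 16.86 in replicate 2, inside Mark2, a kinase gene at 50.26 and 78.94 TPM.

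The libraries differed more in the antisense genes than in protein-coding genes. The median log2 ratio of replicate 1 over replicate 2, computed from TPM + 0.1, was -0.43 over the 99 and -0.36 over the protein-coding genes at 5 TPM. All ratios between the libraries from here on are relative to that median of -0.36. So centred, 44 of the 99 were above 0 and 55 below, and the median was -0.07. The median size of the centred ratio was 0.45 on the log2 scale, against 0.23 for protein-coding genes. The median count was 324 in replicate 1 and 215 in replicate 2 for the 99, against 1165 and 760 for protein-coding genes, and the part of counting error in this spread was not tested. Log2 TPM in the libraries correlated with r of 0.800 over the 99 and 0.963 over 4929 protein-coding genes.

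Beyond 2-fold, 5 of the 99 were higher in replicate 1 and 6 were lower. Over all 5682 annotated genes at 5 TPM, 2.46% were higher and 1.14% lower, 3.61% in either direction, against 11 of 99 (11.1%) here. With 1 library on each side this is a description of these libraries.

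The 5 higher in replicate 1 had 68 or more counts in each library. 6530409C15Rik had 13.20 TPM in replicate 1 and 6.24 in replicate 2, a centred log2 ratio of 1.43. 5830408C22Rik had 12.44 and 6.09 TPM and a ratio of 1.38, and 1700060J05Rik had 26.00 and 14.82 TPM and a ratio of 1.17. 4930551O13Rik, inside the autophagy receptor gene Optn, and D730005E14Rik had ratios of 1.04 and 1.03. Their partners moved less, with centred ratios of 0.45 for Zfp800, 0.24 for Plekha2, -0.11 for the choline transporter gene Slc44a1 and 0.00 for Optn.

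Lowest in replicate 1 was Gm15655, with 9.66 TPM in replicate 1 and 41.23 in replicate 2, a centred log2 ratio of -1.72. Maf, whose exons cover all of Gm15655, had 26.92 and 45.31 TPM and a ratio of -0.39. The authors' interval of the level was 5.43 to 13.4 TPM in replicate 1 and 30.4 to 47.0 in replicate 2 for Gm15655. Gm15445 had 9.66 and 33.62 TPM and a ratio of -1.43, and Gm29083 had 19.24 and 61.91 TPM and a ratio of -1.32. Gm37401, with 5.27 and 16.53 TPM, had a ratio of -1.27 on 24 and 39 counts, with intervals of 1.31 to 9.82 and 8.68 to 23.9 TPM. The intervals of Gm37401 overlapped between the libraries. The authors' intervals are of TPM as deposited and are not centred. 4930453C13Rik, inside the ataxin gene Atxn1, had 6.72 and 20.84 TPM and a ratio of -1.26. The other gene beyond 2-fold, outside the rule for names, was Gm47272, with 6.12 and 16.65 TPM and a ratio of -1.07.

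Of the 11 genes beyond 2-fold, 9 had a partner and in none of the 9 was the partner beyond 2-fold in the same direction. Of all partners only 1 was beyond 2-fold either way, 1700011L22Rik, at 0.08 TPM in replicate 1 and 0.55 in replicate 2 and so below 5 TPM. Of protein-coding genes at 5 TPM, 1.83% were beyond 2-fold. None of 9 is close to that share. Across all 93 pairs, those 9 included, the ratios of antisense gene and partner were positively correlated. In 61 of 93 pairs the antisense gene and its partner lay on the same side of 0, and the centred ratios correlated with r of 0.518 and rho of 0.544. Over the 41 genes inside a partner without exonic overlap, r was 0.440 and rho 0.563. All points come from the same 2 libraries, and the 93 pairs hold 84 distinct partners.

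**Figure D4:**
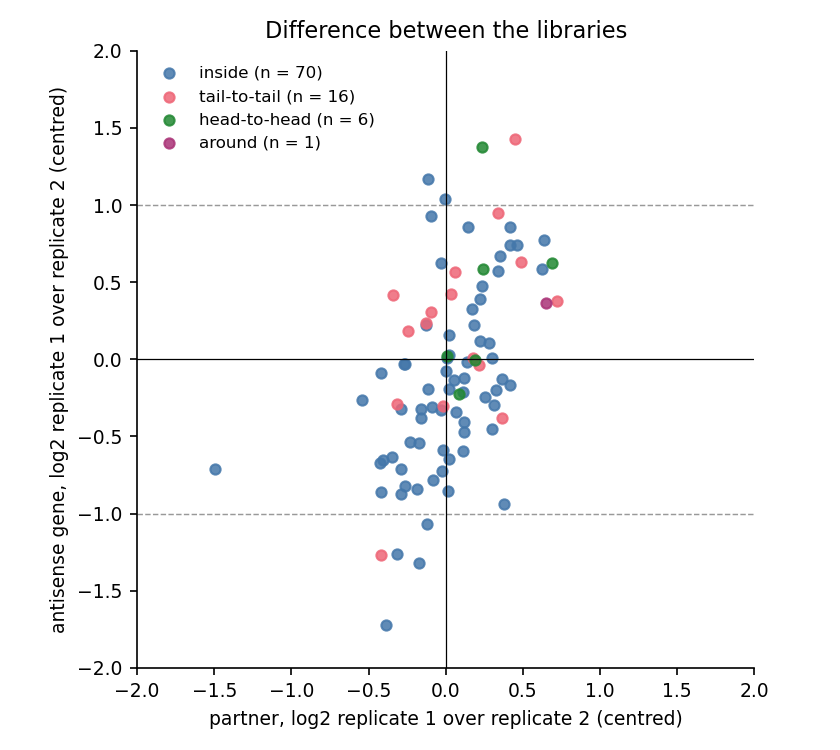
Centred log2 ratio of replicate 1 over replicate 2 for each antisense gene (vertical) against its partner (horizontal), for 93 pairs coloured by position, with dashed lines at 2-fold for the antisense gene. The points spread more along the vertical than along the horizontal axis, and 61 of 93 lie upper right or lower left of the crossing zero lines.

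A second quantification of the same reads, made directly from the read files, gave higher levels for many of the shorter antisense genes. Set on the same median of protein-coding genes, 24 of the 99 were more than 2-fold higher in the second quantification than in the first and 2 were lower. Over all 5682 genes at 5 TPM the shares were 6.44% higher and 1.36% lower, 7.8% in either direction. Of the 99, 88 also reached 5 TPM in each library in the second quantification, and Gm44709 was under 1 TPM in both. Levels of the 99 in the quantifications correlated with r of 0.631 and rho of 0.573.

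The difference followed length. The median log2 ratio of second over first quantification was 1.77 over 7 genes with an effective length under 200 bases and 1.09 over 25 genes of 200 to 500 bases. It was 0.19 over 36 genes of 500 to 1500 bases and -0.20 over 31 longer genes. For protein-coding genes in the same 4 classes it was 0.14, 0.04, 0.02 and -0.01. Across the 99, the ratio and log2 effective length correlated with r of -0.417 and rho of -0.567.

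The largest single difference was Gm26716, which is wholly covered by exons of Sdc3, a syndecan gene. It had 0 TPM in replicate 1 and 11.7 in replicate 2 in the second quantification, against 23.85 and 55.53 in the first. Gm44709, opposite the elongation factor gene Supt5, had 0.838 and 0.996 TPM in the second, against 7.17 and 5.94 in the first. Both are among the 5 genes with at least 90% of their exonic bases on partner exons. The other 4 of the 5 widest gaps went the other way. Gm44649 had 57.5 and 66.1 TPM in the second quantification, against 5.27 and 6.74 in the first, and Gm49173, inside the scramblase gene Ano6, had 53.7 and 81.9, against 6.02 and 14.18. Gm20234, opposite the schlafen gene Slfn2, had 139 and 167 TPM, against 21.83 and 36.58, and Gm43569 had 28.2 and 32.5, against 5.0 and 6.53.

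**Figure D5:**
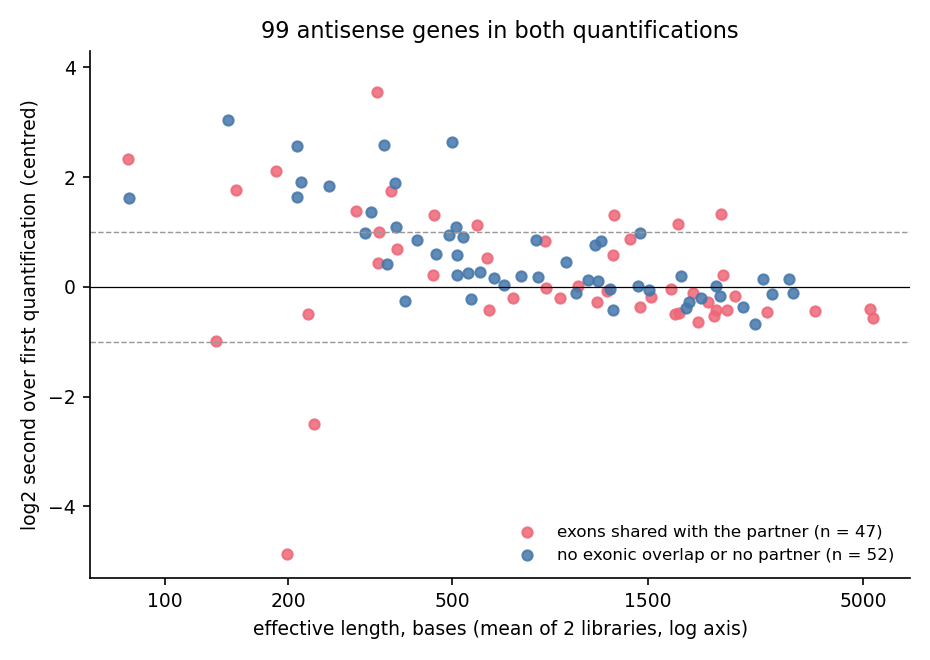
Log2 ratio of the second over the first quantification, centred on protein-coding genes, against effective length in bases (log axis) for the 99 antisense genes, coloured by whether they share exonic bases with a partner. Dashed lines mark 2-fold, and most of the 24 points above the upper line have an effective length under 500 bases, while the 2 points below the lower line are Gm26716 and Gm44709.

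The difference between the libraries was more alike in the quantifications than the levels were, with a rho of 0.885 for the centred ratio of replicate 1 over replicate 2 over the 99. The Pearson r was 0.647. Of the 11 genes beyond 2-fold, 4 stayed so in the second quantification and 7 were within 2-fold. Over all 5682 genes at 5 TPM, 3.61% were beyond 2-fold in each quantification. How many of those stayed so was not counted. Gm15655 had a centred log2 ratio of -1.70 there, Gm15445 -1.49, Gm37401 -1.03 and 5830408C22Rik 1.26. Among the 7, the 4 that were higher in replicate 1 had ratios of 0.72 (6530409C15Rik), 0.68 (1700060J05Rik), 0.68 (4930551O13Rik) and 0.59 (D730005E14Rik). The 3 that were lower had -0.99 (4930453C13Rik), -0.89 (Gm29083) and -0.54 (Gm47272).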

How the data were processed

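Total RNA of the nucleoplasm was measured in 2 libraries of 1 group, grouped by the labels. Per the file headers and notes, the authors quantified transcripts of GENCODE M21 from reads aligned to the mm10 transcriptome (first quantification), and again from 10 read files per library (second quantification). No source used here names the aligner or the quantifiers. Estimated counts, as deposited, are reads assigned to a feature without scaling and can be fractional. Deposited TPM have 1 common total per library that includes small RNAs. FPKM, which the authors scaled to length and depth, and their posterior mean TPM were alternatives. Leading transcripts followed the authors' percent per isoform. Bounds of the authors' TPM interval (a signal value) are given for Gm15655 and Gm37401. In the second quantification, transcripts were summed per gene, which held 30881427 and 27674626 estimated counts.

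Gene types and coordinates came from GENCODE M21. A partner was the opposite-strand protein-coding gene with an overlapping body, the longest overlap where several, and a start neighbour was an opposite-strand start within 1000 bases. Effective length is the transcript length open to fragment starts. Library ratios used TPM + 0.1 and were centred on protein-coding genes at 5 TPM in both libraries. Scaling by edgeR 4.0.16 and DESeq2 1.42.0 was tested on simulated data. A count of 0 allows up to 3 counts, a CPM of 0.132 in replicate 1 and 0.201 in replicate 2. Wilson intervals and floors cover counting error only, and exact binomial intervals take genes as independent trials. Computation used Python 3.11.15, numpy 2.4.6, pandas 2.3.3, scipy 1.17.1, matplotlib 3.10.9 and R 4.3.3.

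Genes were named for the 10 highest mean levels, the 5 largest and smallest library ratios, partner ratios at both ends, the 5 largest differences between quantifications, the 5 closest starts, genes at the threshold, and partners on the lists. The genes and the lists were chosen with earlier results of these data known. Other genes were named after their values were seen.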

Additional observations from a re-analysis of the deposited data

How the results depend on the processing

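The antisense set depended on the scale. Its size of 99 was 42 at a threshold of 10 TPM, 135 with FPKM, 100 with posterior mean TPM, 234 with the second quantification and 235 with TPM rescaled to features of 200 bases or more, and 109 to 146 with 1 library left out, an alternative chosen after seeing the data. The median level of 12.5 TPM was 36.5 after rescaling, 16.3 in FPKM and 22.6 at 10 TPM, and 9.87 to 15.08 with 1 library left out. The share of counts of 0.299% was 0.356% in the second quantification and 0.295% to 0.304% with 1 library left out. The median centred log2 ratio of -0.07 was 0.016 in the second quantification, an opposite sign, and stayed below 0 under the 5 other settings. The 5 genes more than 2-fold higher in replicate 1 were 2 in the second quantification, against 2.31% of all genes at 5 TPM. They were 3 with a pseudocount of 1 (2.16%) and 7 under edgeR's TMM (2.82%) and DESeq2's size factors (2.76%). The 6 lower ones were 4 in the second quantification (1.3%) and 5 with a pseudocount of 1 (1.04%). They stayed 6 under TMM (0.968%), DESeq2 (0.986%) and centring on all genes (1.13%). Among genes with a mean of 100 or more counts they were 4, without a share over all genes at hand. In either direction 6 of the 99 (6.06%) were beyond 2-fold in the second quantification, against 3.61% of all genes. The 11 genes above their partner were 7 in the second quantification, 6 of 48 with partners chosen by overlapping exons, and 13 to 15 with 1 library left out. The median log2 ratio to the partner, -1.96 over both libraries, was -1.80 in the second quantification, -1.86 with a pseudocount of 1 and -3.61 in CPM, which takes no account of length, and -2.01 to -1.90 with 1 library left out. Except for CPM, the cause of these shifts was not tested. With 3 of the 99 under 50 counts in both libraries, single ratios of low genes are imprecise. No paired analysis was possible because the series has 1 group.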
